A study of Homo sapiens with 7 samples.

Results

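The 5-hydroxymethylcytosine (5-hmC) landscape was examined at 9 genes around the MYC family: the family members MYC and MYCL, their partner MAX, and LIN28B, ODC1, TERT, NCL, MDM2 and AURKA, which are known as MYCN targets or, for AURKA, as a partner of the MYCN protein. A peak was assigned to a gene when its midpoint lay in the gene or in the 20 kb on either side, in hg19 coordinates. Of the 352484 peaks at 72 h, 153 lay in these 9 windows, and of the 285292 peaks in normoxia, 125 did. Overlapping peaks of the 6 lists were merged into regions, of which 184 out of 415474 lay in the windows. The 9 genes are on the same chromosomes in the RefSeq table as in the windows.

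The cells were SK-N-BE(2), an established human neuroblastoma line with an amplified MYCN gene, labelled as wild type. They were kept in 1% oxygen for 6, 12, 24, 48 or 72 h (hypoxia) or at 21% oxygen (normoxia, 0 h), and DNA fragments holding 5-hmC were captured chemically and sequenced. Each time is represented by 1 library and 1 list of peak positions, without heights, so values have no replicate error, no test was possible, and a difference is one of single libraries. Since 0 h is the only captured library at 21% oxygen, low oxygen and time in culture cannot be told apart. Values given for all 6 times are in the order 0, 6, 12, 24, 48 and 72 h, the first of them normoxia. All cells share the MYCN amplification, and read depth is unknown.

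5-hmC is made from 5-methylcytosine by the TET dioxygenases, which need oxygen, and in many tissues it is found over the bodies and flanks of genes more than at their CpG-rich starts. MYC, MYCL and MYCN are transcription factors that bind DNA as dimers with MAX, with a preference for the E-box CACGTG. In neuroblastoma an amplified MYCN gene takes the place that MYC has in many other cancers, and it drives genes of ribosome production, polyamine synthesis and the cell cycle.

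Sequences of the gene starts were taken from RefSeq (GRCh38.p14), matched for 7 of the 9 genes, so that the CpG sites open to 5-hmC near the starts can be seen. This build differs from that of the peaks, so peaks were not placed on these bases. The 250 bases before the start are shown for NCL and TERT, which had a peak within 1 kb of the 5′ end, for MDM2, which had a peak close upstream in hypoxia alone, and for the downstream start of LIN28B, which had none within 1 kb. Capitals mark CpG, and the coordinates are those of the window of 300 bases in GRCh38.p14, whose last 50 bases are not printed.
NCL (chr2:231464435-231464734, minus strand): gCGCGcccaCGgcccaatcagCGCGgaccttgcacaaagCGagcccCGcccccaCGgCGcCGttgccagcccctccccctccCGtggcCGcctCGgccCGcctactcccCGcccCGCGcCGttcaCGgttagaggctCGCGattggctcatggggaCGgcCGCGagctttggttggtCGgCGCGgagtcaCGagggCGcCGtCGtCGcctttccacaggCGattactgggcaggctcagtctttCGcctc
TERT (chr5:1295019-1295318, minus strand): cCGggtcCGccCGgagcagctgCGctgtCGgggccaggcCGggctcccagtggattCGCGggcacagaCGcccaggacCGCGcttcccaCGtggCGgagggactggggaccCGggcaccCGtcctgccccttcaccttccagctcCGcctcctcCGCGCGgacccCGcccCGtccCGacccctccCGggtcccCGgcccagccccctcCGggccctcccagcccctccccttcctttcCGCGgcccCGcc
MDM2 (chr12:68807922-68808221, plus strand, the first of 4 starts): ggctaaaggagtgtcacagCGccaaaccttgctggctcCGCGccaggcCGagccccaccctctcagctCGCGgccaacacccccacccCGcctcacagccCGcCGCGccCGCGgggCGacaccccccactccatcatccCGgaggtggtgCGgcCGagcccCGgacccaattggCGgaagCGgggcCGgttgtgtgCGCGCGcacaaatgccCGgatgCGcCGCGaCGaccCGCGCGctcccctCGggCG
LIN28B (chr6:104956857-104957156, plus strand, the second of 2 starts): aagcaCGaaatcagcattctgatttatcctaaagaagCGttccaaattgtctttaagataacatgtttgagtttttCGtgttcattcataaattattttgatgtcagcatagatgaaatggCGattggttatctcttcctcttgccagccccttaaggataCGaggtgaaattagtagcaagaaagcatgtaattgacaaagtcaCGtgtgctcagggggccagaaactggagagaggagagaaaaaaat
These stretches hold 34 CpG for NCL, 28 for TERT, 33 for MDM2 and 6 for LIN28B. In windows of 300 bases, from 250 before to 50 after the start, NCL held 39 CpG, TERT 36, MDM2 39 and this LIN28B start 8, where the median over 35116 promoters was 14. The other LIN28B start held 37, and MYCL, which likewise had no peak within 1 kb of its 5′ end, held 43.

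The E-box CACGTG, which reads the same on both strands, was searched in the same 300 base windows. The 7 genes have 13 such windows, of which 3 held it, 1 each for LIN28B, ODC1 and TERT, beside 7.26% of all promoter windows. Windows of 1 gene can overlap and are not independent. The matches before the start are shown with 20 bases on each side and the E-box in capitals.
LIN28B, 47 bases before its second start: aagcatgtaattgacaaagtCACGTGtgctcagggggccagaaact
ODC1, 29 bases before its second start: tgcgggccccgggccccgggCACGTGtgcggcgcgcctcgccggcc
TERT, 163 bases before its start: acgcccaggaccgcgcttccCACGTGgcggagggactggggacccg
A match is a run of letters and was not tested for binding. MDM2, NCL, MAX and MYCL had no CACGTG in these windows.

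Together, the windows lay close to the whole lists, which were longer in late hypoxia, and how far read depth differed between the libraries was not tested. Their peak numbers over the 6 times were 125, 126, 135, 132, 142 and 153. Their share of a list was 0.0434% at 72 h (95% Clopper-Pearson interval 0.0368 to 0.0509%) and 0.0438% at 0 h (0.0365 to 0.0522%), so the shares differed by less than counting error. Peaks in them covered 84.1 kb at 72 h, against 61.6 kb in normoxia, a ratio of 1.36, against 1.31 for the whole lists and 1.28 for the 1 Mb on each side of the windows. All intervals cover counting error only.

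The single windows differed more. At 72 h all 9 windows had a longer covered length than at 0 h, and 6 of them exceeded the ratio of the whole lists. Each window's ratio to 0 h was divided by that of the whole lists, and the window was called higher from 1.5 upwards and lower from the inverse of 1.5 downwards. At 72 h the higher threshold was passed by AURKA and MDM2 and the lower one by none, whereas 15.5% of 33461 tiles of 50 kb passed the higher and 2.77% the lower. A count of 2 among 9 windows is close to that background, and windows differ in length from tiles. At 48 h MDM2 was higher and no window lower, beside 13.1% and 2.05% of tiles. At 6 h MYC was lower and no window higher, beside 3.59% and 5.58% of tiles. No window passed a threshold at 12 h (5.45% of tiles higher, 3.57% lower) or at 24 h (8.06% higher, 2.11% lower).

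**Figure D1:**
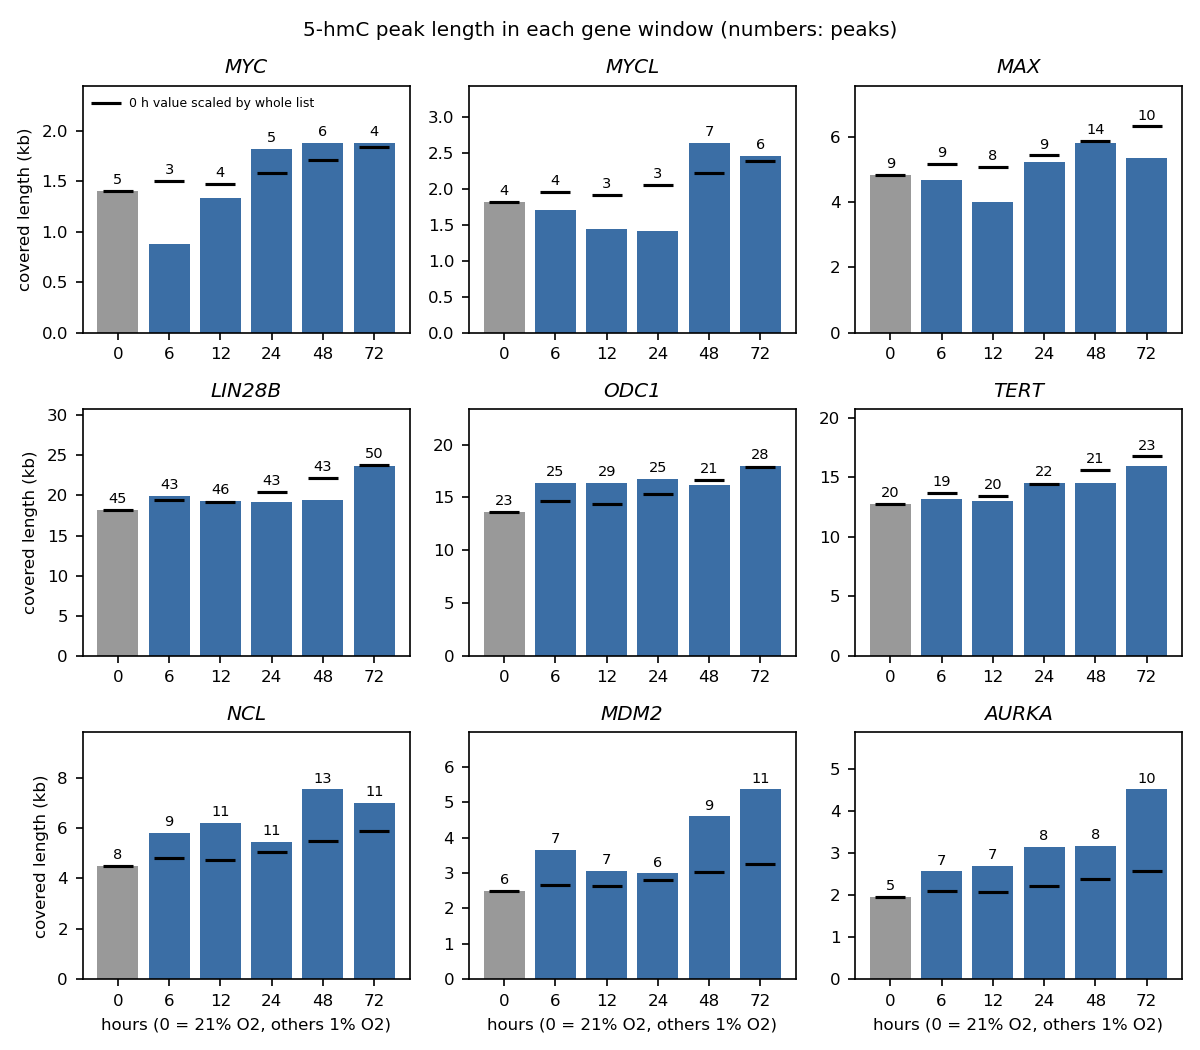
Length covered by 5-hmC peaks (kb, linear axis from 0) in the 9 gene windows at each time, 1 library per time, with the number of peaks above each bar and the normoxia bar in grey. Black dashes give the 0 h value multiplied by the ratio of the whole lists; AURKA and MDM2 at 72 h stand farthest above their dash, at 1.76 and 1.64 times it, and MAX lies below its dash, at 0.849 times.

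Gains and losses over the 184 regions were close to those of all regions. A region was gained at a hypoxia time where it had a peak then and none in normoxia, and lost in the reverse case. By 72 h, 40 of the 158 regions with a peak at either time were gained (25.3%, 95% Clopper-Pearson interval 18.7 to 32.8%), where 27.9% of all regions were. Lost were 13 of 158 (8.23%, 4.45 to 13.7%), against 7.37% of all regions. At 6 h, 18 of 136 were gained (13.2%, 8.04 to 20.1%; 15.3% of all) and 18 were lost (13.2%, 8.04 to 20.1%; 11.8% of all), so gains and losses were equal in number there. Gained at 12 h were 24 of 142 (16.9%, beside 15.2% of all regions). At 24 h, 22 of 140 were gained (15.7%, beside 18.7%), and at 48 h 37 of 155 (23.9%, beside 24.1%). Lost at 12 h were 17 (12.0%, 7.13 to 18.5%, beside 11.9% of all regions). At 24 h, 17 were lost (12.1%, 7.24 to 18.7%, beside 9.53%), and at 48 h 18 (11.6%, 7.03 to 17.7%, beside 7.89%). With the same number of peaks kept per list, widest first, 19 of 137 were gained by 72 h (13.9%; 18.0% of all) and 18 were lost (13.1%; 14.5% of all). Lists of equal length hold gains and losses close together over all regions, so this setting cannot show whether gains exceeded losses. Gained regions had a median width of 294.5 bp at 72 h (311 bp over all regions), against 557 bp for the 89 member regions in all 6 lists (562 bp over all regions). These 89 were 48.4% of the 184 (41.0 to 55.8%), beside 46.8% of all regions.

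Regions listed at all 5 hypoxia times and not at 0 h numbered 3, at MDM2, AURKA and ODC1, which is 1.63% of the 184 (0.338 to 4.69%) beside 2.99% of all regions. A further 6 were listed at 48 and 72 h alone (3.26%, 1.21 to 6.96%; 3.61% of all), 3 of them in the MDM2 window, and 9 at 72 h alone (4.89%, 2.26 to 9.08%; 7.13% of all). At 0 h and at neither 48 nor 72 h were 11 regions (5.98%, 3.02 to 10.4%; 3.81% of all), 5 of them in LIN28B, 2 in MDM2, 2 in TERT, 1 in MAX and 1 in ODC1. Their widths at 0 h were 226 to 334 bp. In normoxia alone were 8 (4.35%, 1.90 to 8.39%), where 1.84% of all regions were, so the lower bound of the interval was just above the share of all regions, and regions that share a window are not independent.

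**Figure D2:**
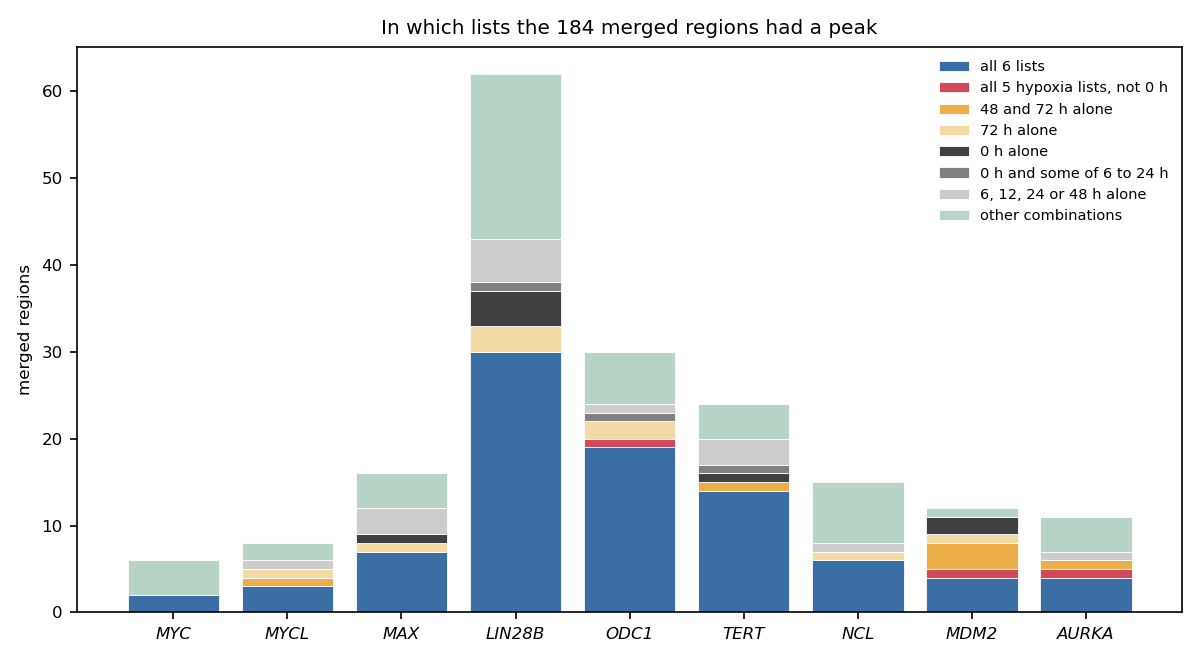
Number of merged regions in each gene window (vertical axis from 0), coloured by the lists in which they had a peak. LIN28B had the most regions, 62, of which 30 were in all 6 lists, and ODC1 had the highest number in all 6 lists for its length, 19 of 30.

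Widths were compared in the 71 member regions with exactly 1 peak in every list. At 72 h their median was 506 bp, against 441 bp in normoxia, and 52 of the 71 (73.2%) had a wider peak at 72 h, beside 71.2% of all such regions. By at least 1.5 times, 10 were wider (14.1%, 95% Clopper-Pearson interval 6.97 to 24.4%; 14.2% of all) and 1 was narrower (1.41%, 0.0357 to 7.60%; 1.97% of all). The 10 were 4 in LIN28B, 3 in TERT and 1 each in NCL, MDM2 and AURKA. In TERT the largest ratio was 1.81, for the region from 1285805 to 1286434, with 428 bp at 72 h, against 236 bp in normoxia. No region of MYC, MYCL, MAX or ODC1 was among them. At 6, 12, 24 and 48 h, 3, 4, 3 and 6 regions were wider by 1.5 times, where 6.28%, 5.61%, 7.55% and 10.8% of all were. Narrower were 2, 3, 2 and 0, where 2.8%, 3.24%, 2.37% and 2.17% of all were.

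**Figure D3:**
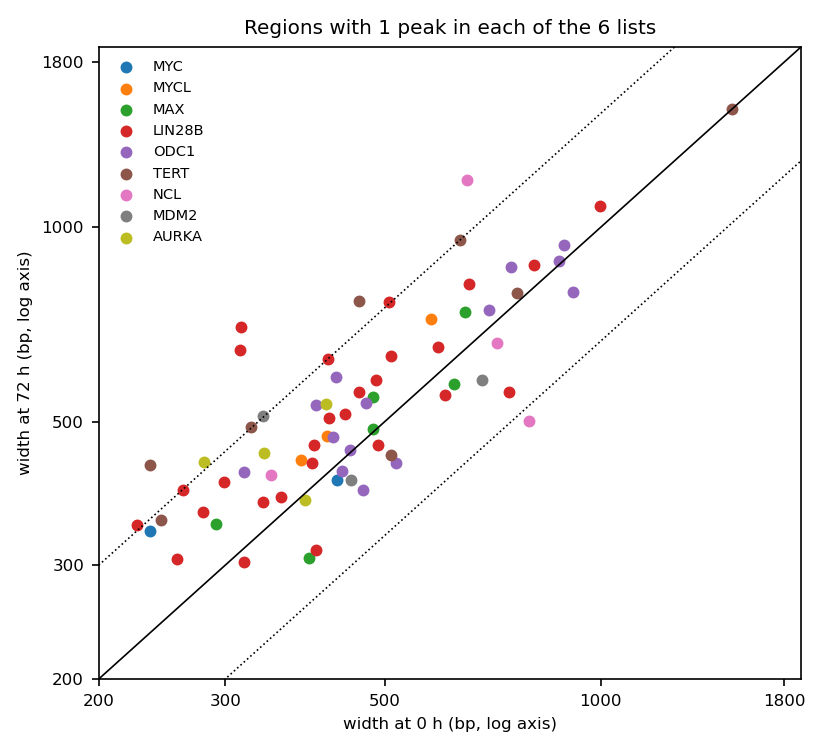
Width at 72 h against width at 0 h (bp, both axes logarithmic) of the 71 regions with 1 peak in each of the 6 lists, coloured by gene. The solid line marks equal widths and the dotted lines a ratio of 1.5 in either direction; 52 points lie above the solid line, 10 on or above the upper dotted line and 1, in NCL, below the lower one.

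The windows of MYC, MYCL and MAX had the lowest covered length per kb of the 9 at 72 h. They exceeded 52.2%, 59.0% and 50.9% of the 50 kb tiles of the genome, empty tiles included. Around MYC, the founding member of the family (chromosome 8 from 128728000 to 128774000), the lists held 5, 3, 4, 5, 6 and 4 peaks over the 6 times. All of them lay beyond the 3′ end used here, and the 20 kb upstream held no peak in any of the 6 lists. A region from 128754042 to 128754441, present in all 6 lists, began just past that end, which is given to 1 kb. The RefSeq gene is longer (7.5 kb, against 6 kb here), so whether this region lies inside MYC cannot be told, and no peak was listed upstream of it. Covered length was 1.40, 0.881, 1.34, 1.82, 1.88 and 1.88 kb, so the 6 h list held least. Of 6 merged regions, 2 were in all 6 lists. The region from 128763649 to 128764233, absent at 6 h, had the widest peak, of 576 bp at 72 h, against 241 bp in normoxia. The region from 128772946 to 128773560 was likewise absent at 6 h, and measured 558 bp at 72 h, against 226 bp in normoxia.

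MYCL, a family member first found amplified in lung cancer (chromosome 1 from 40341000 to 40388000), had 4, 4, 3, 3, 7 and 6 peaks. They covered 1.82, 1.70, 1.44, 1.41, 2.64 and 2.46 kb, so 48 and 72 h lay above normoxia and the earlier hypoxia times below it. The ratio at 72 h was 1.35, against 1.31 for the whole lists and 1.37 in the 1 Mb on each side. A region inside the gene, centred 1.60 kb from the 5′ end, was present at every time with a width between 283 bp at 12 h and 436 bp at 72 h. A second region of the gene body, from 40364505 to 40364948, was present at 48 h (346 bp) and in normoxia (444 bp) and absent at the other 4 times. The gene body alone thus covered less at 72 h than in normoxia, with a ratio of 0.528. The widest peak, 726 bp at 6 h, was in the 3′ flank. MYCL-AS1 overlaps MYCL in the RefSeq table, and the lists have no strand, so their signals cannot be told apart.

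MAX, the common partner of the family (chromosome 14 from 65452000 to 65590000), had 9, 9, 8, 9, 14 and 10 peaks. Nearly all were in the gene body, with all 10 at 72 h and all 9 in normoxia. Covered length was 4.83, 4.69, 4.02, 5.25, 5.83 and 5.37 kb, with a 72 h ratio to normoxia of 1.11, the lowest of the 9 windows. Its widest peak lay about 6 kb inside the gene, from 65563024 to 65564507 as merged over the lists, and measured 1454 bp at 72 h, against 1421 bp in normoxia. A region from 65502738 to 65502992 was listed in normoxia alone, with 255 bp. FNTB, a farnesyltransferase subunit gene, overlaps MAX in the RefSeq table, and peaks in the shared stretch belong to both.

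At 72 h all 6 other genes lay above MYC, MYCL and MAX by covered length per kb of window, and in normoxia ODC1, TERT, LIN28B and NCL did. At 72 h the covered length per kb of window was 366 bp for ODC1, 192 for TERT, 141 for LIN28B, 137 for NCL, 70.4 for AURKA, 68.0 for MDM2, 52.3 for MYCL, 40.9 for MYC and 38.9 for MAX. In normoxia it was 279 bp for ODC1, 154 for TERT, 108 for LIN28B, 88.2 for NCL, 30.6 for AURKA, 31.6 for MDM2, 38.8 for MYCL, 30.5 for MYC and 35.0 for MAX. The mean over 50 kb tiles of the genome was 65.0 bp per kb at 72 h, against 49.7 in normoxia. The leading 4 genes were thus above it at both times. MYC, MYCL and MAX were below it at both, while AURKA and MDM2 were above it at 72 h and below it at 0 h. Dense tiles raise this mean, and every one of the 9 windows exceeded more than 50% of the tiles at both times, from 50.9% for MAX at 72 h upwards. These 58990 tiles include empty ones, which any window with a peak exceeds, and 33461 had a mean covered length of at least 1 kb. AURKA exceeded 68.0% at 72 h, against 57.3% in normoxia, and MDM2 66.9%, against 58.1%. With 1 library a time no error can be estimated, so close neighbours in this ranking cannot be ordered.

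ODC1, the rate-limiting enzyme of polyamine synthesis, stood in the densest window (chromosome 2 from 10560000 to 10609000). At 72 h its covered length per kb exceeded that of 98.5% of the 50 kb tiles, and in normoxia that of 97.6%. It had 23, 25, 29, 25, 21 and 28 peaks, which covered 13.7, 16.3, 16.4, 16.7, 16.2 and 18.0 kb. Peak number was thus lowest at 48 h while covered length was above normoxia at every hypoxia time. The ratio of covered length at 72 h was 1.32, against 1.31 for the whole lists and 1.24 in the 1 Mb on each side. The gene body of 9 kb held 2 peaks at 72 h, against 4 in normoxia, and they covered 2694 bp, against 1954 bp. The flanks were denser than the body, with 382 against 299 bp per kb at 72 h and 292 against 217 in normoxia. Peaks in the 1 Mb on each side covered 394 kb at 72 h and 318 kb in normoxia, the most of the 9 windows. HPCAL1 and ODC1-DT are among the neighbours of ODC1 in the RefSeq table, and whether flank peaks lie in them was not tested. In the gene body, the region from 10585306 to 10587228 was split into 2 peaks at 0 h and 6 h and 3 at 12 h, and was a single peak at 24, 48 and 72 h. It covered 1882 bp at 72 h, against 1155 bp in normoxia. The widest peak of the window, 2046 bp at 24 h, lay about 5 kb upstream. Around the 5′ end, given to 1 kb by the window, peaks covered 1806 bp of the 4 kb from 2 kb before to 2 kb after at 72 h, against 1566 bp in normoxia.

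Of 30 ODC1 regions, 19 were in all 6 lists. A region in the 5′ flank, from 10598521 to 10598889, had no peak at 0 h and one at each hypoxia time, with widths of 235, 254, 263, 279 and 242 bp in order of time. These are near the narrowest peak of the lists, between 226 and 242 bp. In the other direction, a region in the body from 10584292 to 10584641 was listed at 6 h (259 bp) and in normoxia (316 bp) and at no later time.

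TERT, the catalytic subunit of telomerase (chromosome 5 from 1233000 to 1316000), carried its 5-hmC peaks mostly inside the gene. The body had 294 bp per kb at 72 h, against 230 in normoxia, and the flanks 82.6, against 72.4. The window had 20, 19, 20, 22, 21 and 23 peaks, covering 12.8, 13.2, 13.0, 14.5, 14.5 and 15.9 kb. Its widest peak was also the widest of all 9 windows, in a region from 1289248 to 1292259, about 5 kb inside the gene. This region was 1 peak of 2935 bp at 72 h and 1 peak of 1923 bp in normoxia. In between it was 2 or 3 peaks, with 2131 to 2425 bp in sum. A region beside it, from 1292915 to 1294848, covered 1766, 1788, 1918, 1066, 1286 and 1646 bp and was thus shorter at 24 and 48 h than at the other times. At the 5′ end, a region from 1295456 to 1296346 was present at every time and covered 697, 675, 802, 805, 571 and 891 bp. A region from 1266279 to 1266504 was listed in normoxia alone (226 bp), and one from 1297428 to 1297806 at 24 h (313 bp) and in normoxia (334 bp). TERT as a whole stayed near the lists, at 1.25 times its 0 h covered length, and the 1 Mb on each side at 1.24 times.

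LIN28B, an RNA-binding protein that blocks maturation of let-7 microRNAs, had the most peaks (chromosome 6 from 105384000 to 105552000). There were 45, 43, 46, 43, 43 and 50, with a covered length of 18.2, 19.97, 19.3, 19.2, 19.4 and 23.6 kb. The 72 h list stood above the other 5, which lay close together. No peak came within 1 kb of the 5′ end, the nearest edge being 1977 to 2025 bp away at all 6 times. The RefSeq gene is longer (146.3 kb, against 128 kb here) and has a start farther upstream. Upstream of the 5′ end used here, 6 regions were in all 6 lists, and whether they lie inside the longer RefSeq gene was not tested. The nearest, from 105400667 to 105402023, had 1342 bp at 72 h, the widest peak of the window, against 1192 bp in 2 peaks in normoxia.

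LIN28B held 62 of the 184 regions. Of these 62, 9 were gained by 72 h, out of 40 in all windows. Over all regions with a peak at 0 or 72 h, 27.9% were gained. The 62 include regions with a peak at neither time, so 9 of 62 is not on the same base as that share. In normoxia alone were 4, out of 8 in all windows, where 1.84% of all regions were. These 4 start at 105425945, 105440216, 105480329 and 105505822 and are 235 to 312 bp wide. A further region, from 105441861 to 105442352, was listed up to 12 h, with 273, 292 and 273 bp. Of its 27 regions with exactly 1 peak in each list, 22 were wider at 72 h than in normoxia, and 4 by at least 1.5 times, beside 71.2% and 14.2% of all such regions. The largest difference was at the region from 105410585 to 105411299, about 7 kb inside the gene, with widths of 316, 388, 375, 578, 449 and 701 bp in order of time. The region from 105484302 to 105484976 was between 235 and 255 bp wide at 0, 6, 12 and 48 h, absent at 24 h and 675 bp wide at 72 h.

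**Figure D4:**
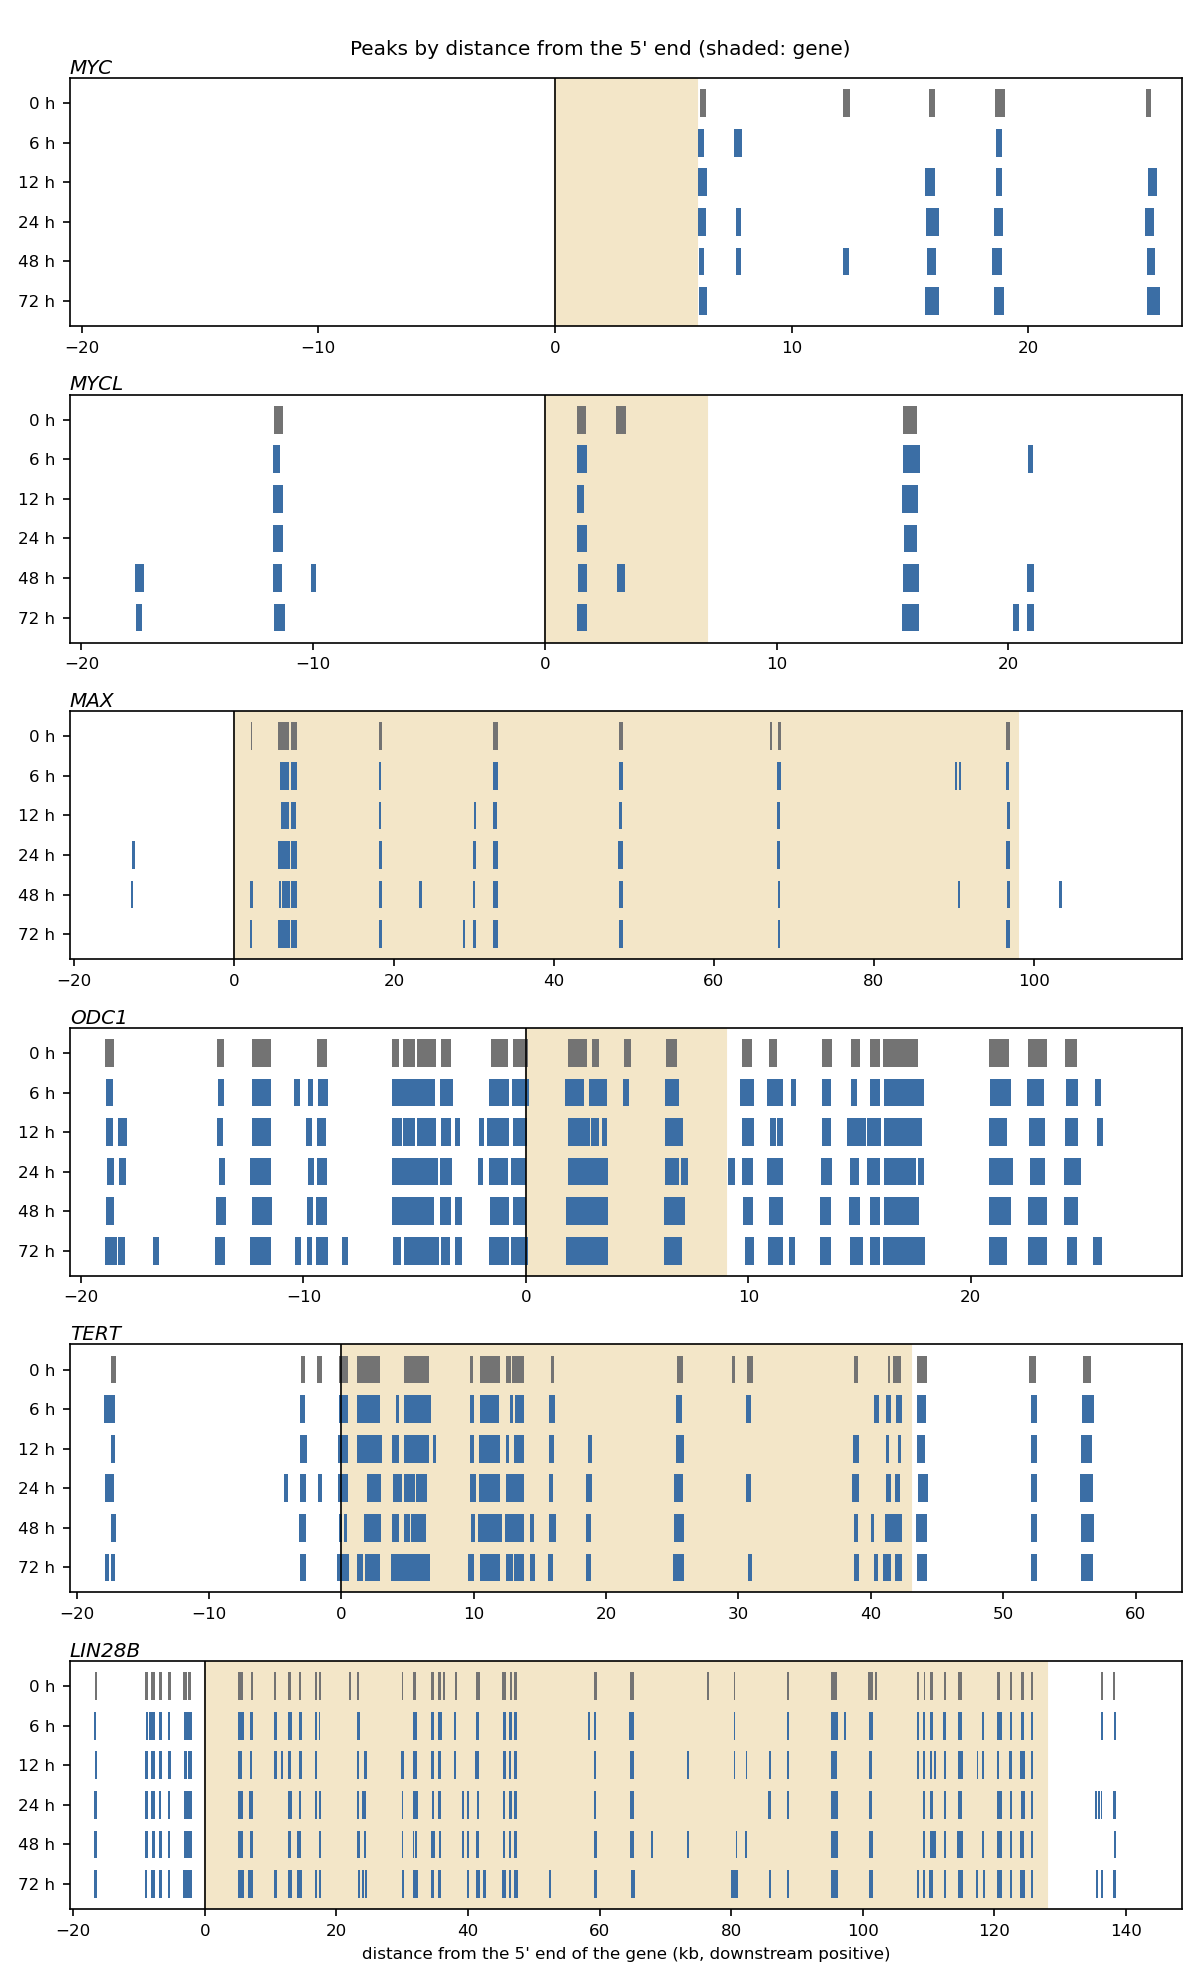
Peaks in the windows of MYC, MYCL, MAX, ODC1, TERT and LIN28B against the distance from the 5′ end of the gene (kb, downstream positive, ends given to 1 kb), with 1 row for each time and the gene shaded. MYC had no peak upstream in any list and its first region at the 3′ end of the shaded gene, MAX had nearly all of its peaks inside the gene, and ODC1 had peaks throughout its window.

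NCL, which encodes the nucleolar protein nucleolin of ribosome production (chromosome 2 from 232299000 to 232350000), had 8, 9, 11, 11, 13 and 11 peaks. Covered length was 4.50, 5.82, 6.22, 5.46, 7.54 and 7.01 kb. All 5 hypoxia lists were above normoxia. The ratio at 72 h was 1.56, against 1.31 for the whole lists and 1.24 in the 1 Mb on each side. Divided by that of the whole lists, the window's ratio was 1.19. Without the flanks the ratio at 72 h was 1.27, below that of the whole lists. For the window, the 95% interval of peak number scaled to the length ratio was 0.571 to 4.46, which is wide at so few peaks. The region at the 5′ end, from 232329949 to 232331169, was a single peak in each list and measured 651, 841, 622, 715, 892 and 1185 bp. Its ratio of 1.82 was the largest in the window. The widest peak, 1398 bp at 6 h, lay at the 3′ end, in the region from 232317459 to 232319092, with 1208 bp at 72 h, against 884 bp in normoxia.

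Inside NCL, regions did not move alike. The region from 232324132 to 232325191 measured 795, 1006, 864, 918, 998 and 502 bp. It was the only one of the 71 single-peak regions of the windows that was narrower by 1.5 times at 72 h, and up to 48 h it was wider than at 0 h. The neighbouring region from 232325259 to 232326532 covered 1166 bp at 72 h, against 694 bp in 2 peaks in normoxia. In the 3′ flank, further regions between 232312801 and 232317337 were listed at some hypoxia times and not at 0 h. Their peaks were 231 to 484 bp wide, where the narrowest peak of a list was 226 to 242 bp. Only the region from 232314270 to 232314595 had a peak at 72 h (319 bp). The share of all regions with such a pattern was not computed. NCL hosts small nucleolar RNA genes in the RefSeq table.

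At MDM2, the ubiquitin ligase that targets p53 (chromosome 12 from 69181000 to 69260000), a wide peak region lay close upstream of the gene in hypoxia alone. It ran from 69198487 to 69199967, centred 1.77 kb before the 5′ end used here. This distance is approximate, since that end is given to 1 kb and the RefSeq gene is longer (42.5 kb, against 39 kb here). The hypoxia lists from 6 to 72 h covered 1258, 1134, 1148, 1369 and 1471 bp of the region, whereas the normoxia list held no peak there. It was split into 2 peaks at 6, 12 and 24 h and was a single peak at 48 and 72 h. Among the 12439 regions of the genome that were listed at all 5 hypoxia times and not in normoxia, it ranked first by its least covered length over the 5 times, and only 2 of them had at least 1 kb at each. This ranking was made after the region had been seen. A second region between it and the gene, from 69200313 to 69200669, was listed at 48 h (303 bp) and 72 h (328 bp) alone. In the RefSeq table the next gene upstream of MDM2 is the pseudogene SZRD1P1, and whether the region overlaps it was not tested, since the builds differ.

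The MDM2 window as a whole had 6, 7, 7, 6, 9 and 11 peaks, covering 2.50, 3.65, 3.05, 2.99, 4.61 and 5.37 kb. The 5′ flank had 56.7 to 108 bp per kb over the hypoxia times and no coverage in normoxia. The gene body had 72.1 bp per kb at 72 h, against 56.7 in normoxia, a ratio of 1.27, which is below the 1.31 of the whole lists. The surroundings differed too: peaks in the 1 Mb on each side covered 63.3 kb at 72 h, against 34.3 kb in normoxia, a ratio of 1.84. Relative to these sides, the window's ratio of 2.15 was 1.17 times as large. The gene body had 3 regions with a single peak in each list, of which 1 was wider at 72 h. Regions from 69226381 to 69226606 (226 bp) and from 69240138 to 69240421 (284 bp) were listed in normoxia alone. CPM overlaps MDM2 at the 3′ side in the RefSeq table.

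AURKA, a mitotic kinase that also stabilises the MYCN protein (chromosome 20 from 54924000 to 54988000), had a longer covered length at each later time. It was 1.96, 2.56, 2.70, 3.14, 3.17 and 4.51 kb, with 5, 7, 7, 8, 8 and 10 peaks. The ratio at 72 h was 2.30, against 1.26 in the 1 Mb on each side. Peak number was 2.00 times that at 0 h, with a 95% interval from the Clopper-Pearson share of 0.623 to 7.46, so counting error alone spans a wide range. Of its 11 regions, 5 were gained by 72 h and none was lost. The 11 include 1 region with a peak at 48 h alone. Over all regions, counted only where a peak was listed at 0 or 72 h, 27.9% were gained and 7.37% lost.

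The region of the AURKA window that every hypoxia list held and normoxia lacked lay in the 3′ flank, from 54934513 to 54935385. It covered 603 bp in 2 peaks at 6 h, and 566, 460, 544 and 579 bp at 12, 24, 48 and 72 h. By its least covered length it ranked 269 among the 12439 such regions. Inside the gene, the region from 54957725 to 54958158 measured 434 bp at 72 h, against 280 bp in normoxia, a ratio of 1.55. The widest peak, 681 bp at 72 h, lay just upstream of the gene, from 54968909 to 54969623 as merged, where 383 bp were listed at 12 h, 392 bp at 24 h, no peak at 6 and 48 h, and 538 bp in normoxia. CSTF1 is the next gene on that side in the RefSeq table.

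**Figure D5:**
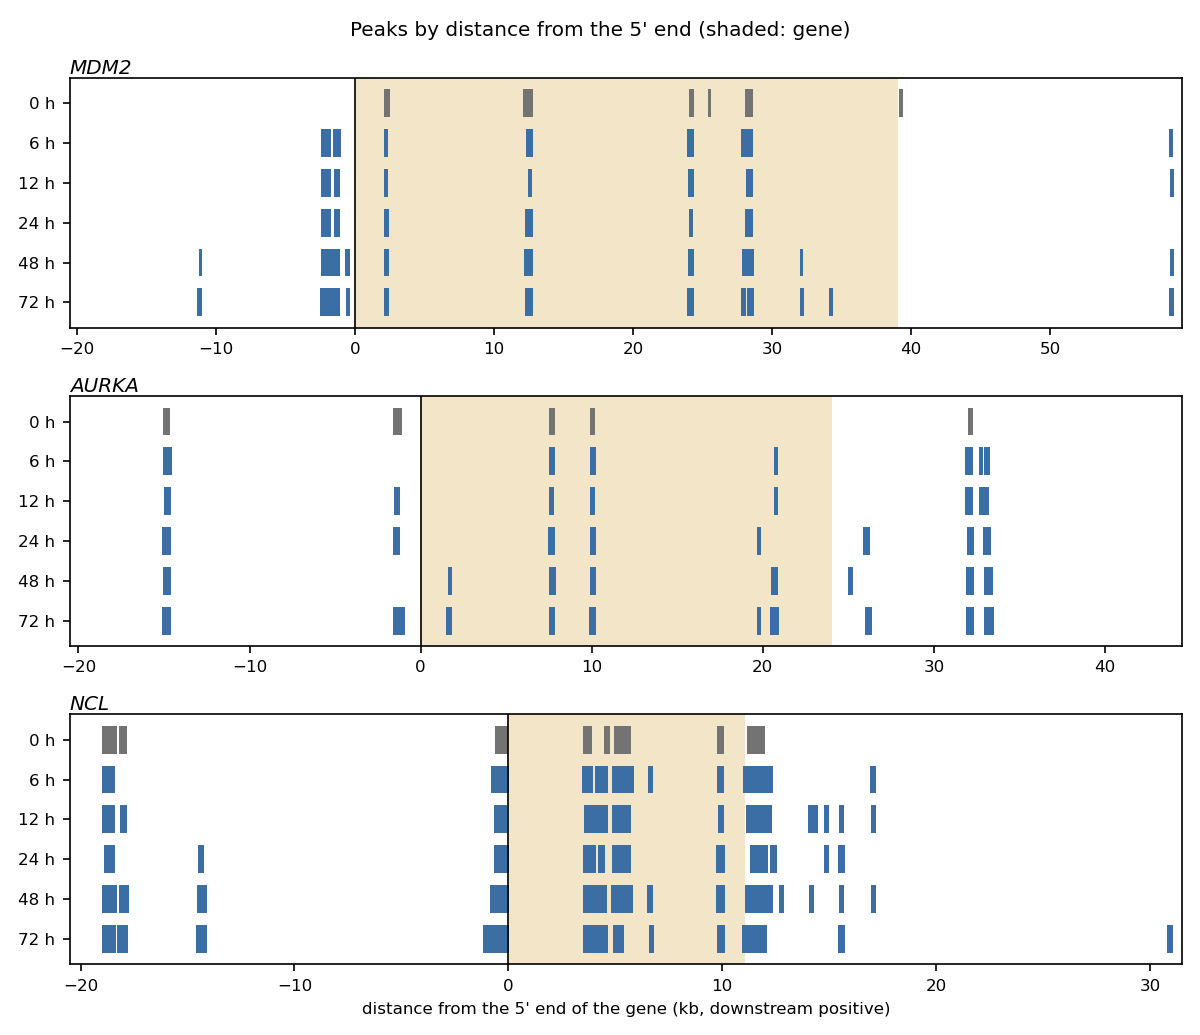
Peaks in the windows of MDM2, AURKA and NCL against the distance from the 5′ end of the gene (kb, downstream positive, ends given to 1 kb), with 1 row for each time and the gene shaded. The region centred 1.77 kb before the 5′ end of MDM2 was present in the 5 hypoxia rows and absent at 0 h, and the peak at the 5′ end of NCL was widest at 72 h, with 1185 bp.

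Gene bodies were denser than the flanks when the 9 windows were pooled, with gene ends as the windows give them. The RefSeq genes of LIN28B (146.3 kb, against 128 kb here), MDM2 and MYC are longer, so peaks counted as flank may lie inside them. Peaks covered 130 bp per kb of gene body and 102 of flank at 72 h, against 101 of gene body and 69.0 of flank in normoxia. The body was denser in 7 of 9 genes at 72 h and in 6 in normoxia, the exceptions at 72 h being MYC and ODC1. Of the regions with a peak at 0 or 72 h, 19 of 91 in gene bodies were gained (20.9%, 13.1 to 30.7%) and 21 of 67 in flanks (31.3%, 20.6 to 43.8%), with intervals that overlap and both hold the 27.9% of all regions. Lost were 10 in gene bodies (11.0%, 5.40 to 19.3%) and 3 in flanks (4.48%, 0.933 to 12.5%), and both intervals hold the 7.37% of all regions.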

How the data were processed

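Captured fragments of SK-N-BE(2) DNA holding 5-hmC were sequenced at 6 times, and an input was not used here. Each deposited list gives the chromosome, start and end of its peaks and no height, fold or p. Per the submitters' processing notes, which state neither roles nor an order, hg19, BWA 0.7.17, MACS2 and HTSeq were used. The threshold of peak calling, like its control, is not given in the sources used here, and depth is unknown.

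The 9 windows, the lists and the rules were chosen with earlier results of these data known. Gene ends are those of the windows without 20 kb on each side, to 1 kb. Peaks overlapping by at least 1 bp were merged into regions over the 6 lists, and regions were assigned by midpoint. A region was gained with no peak at 0 h and a peak at the later time, and lost in the reverse case. Intervals are 95% Clopper-Pearson, and those of a ratio come from the share of peaks. For covered length, the interval of the peak number ratio was scaled to the length ratio, so it holds no spread of widths. Tiles of 50 kb had a mean covered length of at least 1 kb for ratios, and all tiles entered the density ranks. Named regions were, by window, the widest peak, regions in all 5 hypoxia lists and not at 0 h, those at 0 h and not at 48 and 72 h, and the most and least widened past 1.5. Other named regions were chosen after their values were seen. Other genes of the MYC network were not run, since no hg19 annotation was used here. Tested on simulated lists, the computation recovered 6 of 6 quantities. It ran in Python 3.11.15 with pandas 2.3.3, SciPy 1.17.1, NumPy 2.4.6 and Matplotlib 3.10.9.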

Additional observations from a re-analysis of the deposited data

How the results depend on the processing

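Of 51 alternatives for the pooled values of the 9 windows, 44 stayed inside the 95% interval of the value as reported, and 7 did not. For covered length, pooled or by gene, that interval was the one of peak number scaled to the length ratio. The share of regions gained by 72 h was 38.1% with peaks of at least 500 bp and 13.9% with the same number of peaks per list, widest first, which removes narrow peaks from the longer lists; over all regions the shares were 34.3% and 18.0%. With the same number of peaks 13.1% were lost (14.5% of all), and lists of equal length hold gains and losses close together over all regions. The share in all 6 lists was 37.8% with peaks of at least 500 bp (38.6% of all regions). The share lost was 15.0% where overlap of at least 0.5 of both peaks was asked (15.7% of all). With each list's narrowest width subtracted, 33.8% were wider and 8.45% narrower by 1.5 times (32.2% and 10.9% of all), and at 48 h 0 of 71 were narrower (2.17% of all), where 3 counts would be 4.23% and the Clopper-Pearson upper bound is 5.06%. For single genes, 121 of 122 alternatives stayed inside the interval, which is wide at so few peaks, and 11 of the 122 lay on the other side of 1. The one outside was the ratio of peak number at ODC1, 0.50 without the flanks, against 1.22. The ratio of peak number at MYC, 0.8 at 72 h, was 1.33 with 6 h in place of 0 h and 1.20 with 48 h in place of 72 h, on 3 to 6 peaks. The ratio of covered length at MDM2, 2.15, was 1.27 without the flanks and 1.47 with 6 h in place of 0 h. At AURKA, 2.30, it lay between 1.62 and 3.33. The causes were not tested. The other 2 alternatives were added after the data were seen. Tiles with a mean of 2 to 4 kb gave 15.7% higher, beside 15.5%. Asking for at least 1 kb at each hypoxia time left 1 of the 3 regions absent at 0 h, the one at MDM2. No paired analysis was possible because each time has 1 library. Depth sets no limit that could be computed from positions alone.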
